A study of Mus musculus with 8 samples.

Results

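The serpin protease inhibitor family was described across 4 groups of mouse hematopoietic tissue. Its members were the genes whose annotated symbol starts with Serpin, with Serpinc1 left out, and each was read from 1 Affymetrix probe set that names no other gene. Where a gene had several such probe sets, the brightest by mean over the 8 arrays was taken. The rule gave 39 members among 18194 genes, of which 14 were in clade A, 18 in clade B, 1 each in clades D, G and H, and 2 each in clades F and I. One clade A member, Serpina4-ps1, is a pseudogene by its symbol.

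The 4 groups of 2 arrays each were Col18a1-/- fetal liver, Col18a1+/+ fetal liver, Col18a1-/- bone marrow and Col18a1+/+ bone marrow. Col18a1 is the gene of collagen XVIII, a proteoglycan found in basement membranes, and Col18a1-/- and Col18a1+/+ are written below as knockout and wild-type. Both lines are C57B6/J per the labels. Fetal livers were taken at embryonic day 14.5, when the liver is the main site of blood formation, and bone marrow was flushed from the femurs and tibias of males 3 months old. Each array held total RNA of a filtered cell suspension pooled from 2 littermates, so an array is a pool and not an animal, and p-values measure the spread between these pools. Tissue and age change together, as does the sex-linked signal in wild-type arrays described below, and the groups were not sorted for any cell type. All values are log2 intensities after the normalization of the authors, differences are on the same log2 scale with the standard error of the fit, and a member is called where the adjusted p is under 0.05.

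Serpins share a fold with an exposed reactive loop. In the inhibitory members a target protease cuts the loop and is trapped in a covalent complex, while other members have lost this activity and carry hormones or assist the folding of other proteins. Most members of the extracellular clades are secreted, many of them by hepatocytes into plasma, where they restrain clotting, fibrinolysis, complement and leukocyte elastase. Members of clade B stay mostly inside cells, and several protect leukocytes from their own granule proteases.

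The arrays were alike in overall brightness, with median intensities between 40.8 and 42.6, and arrays of 1 group correlated at 0.995 to 0.998. Col18a1 itself was lower in knockout than in wild-type arrays in fetal liver (-1.003 ± 0.13, adjusted p = 0.0315) and in bone marrow (-2.03 ± 0.13, adjusted p = 0.000787). Its fetal liver call was lost in 8 of 16 alternatives, some of which are named at the end. The labels do not give the sex of the embryos. Xist, expressed from the inactive X chromosome, was at 4.97 and 4.77 in knockout fetal livers, against 11.04 and 11.22 in wild-type fetal livers, and the Y-linked Eif2s3y was at 9.38 and 9.42 in knockout fetal livers, against 3.29 and 3.00 in wild-type fetal livers. Genotype and this sex-linked difference cover the same fetal liver arrays and cannot be told apart there. Bone marrow arrays of both genotypes had Eif2s3y at 9.38 to 10.03, so the tissue difference in wild-type arrays and the interaction also cross this sex-linked difference. Of the 39 serpins, 19 reached a log2 level of 5 on at least 2 arrays and entered the tests, which covered 13136 genes. Of these 19, 5 were under 5 on every bone marrow array and passed through fetal liver alone, 1 was under 5 on every fetal liver array and passed through bone marrow alone, and 11 were at 5 or above on all arrays.

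**Figure D1:**
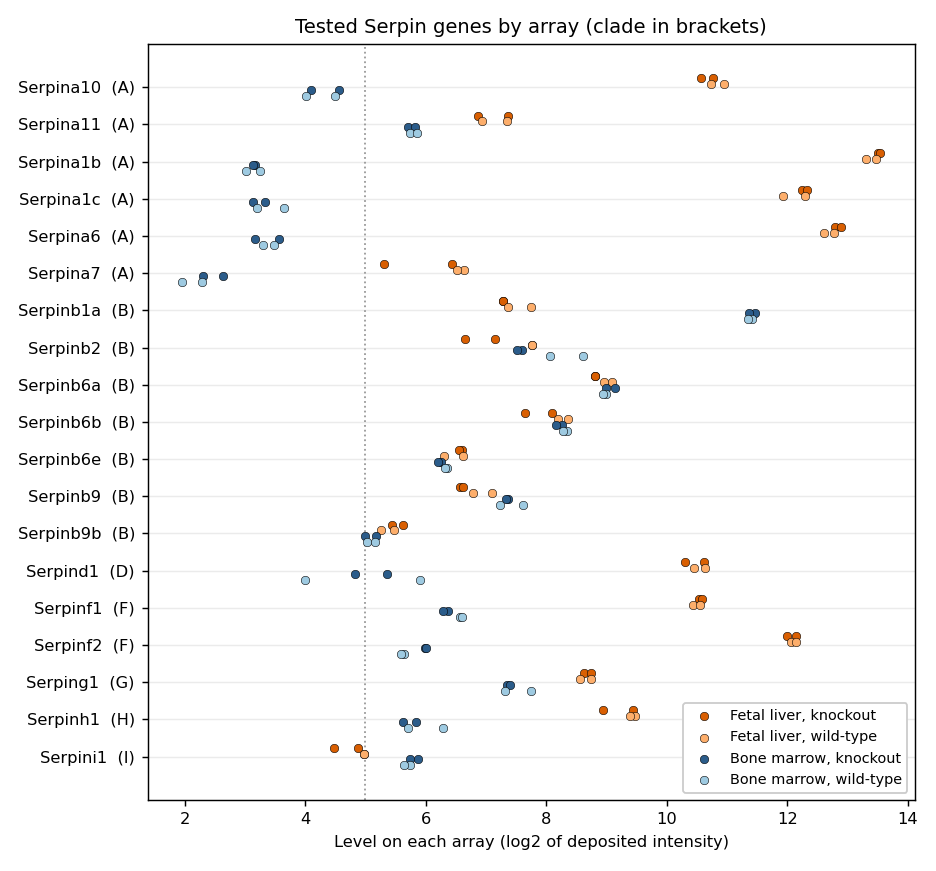
Log2 intensity of the serpins that entered the tests, 1 point per array on the horizontal axis and 4 groups of 2 arrays in each row, with fetal liver above bone marrow and knockout above wild-type. The clade A members, Serpind1, Serpinf1, Serpinf2 and Serpinh1 sit higher in fetal liver and Serpinb1a higher in bone marrow. The dotted line at 5 is the level a gene had to reach on at least 2 arrays.

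All 6 clade A serpins that entered the tests were called higher in fetal liver than in bone marrow in both genotypes. Over all genes tested, 36.6% were called higher in knockout and 39.2% in wild-type arrays. The other 8 of the 14 clade A members were under 5 on every array. Of the 6, all but Serpina11 were under 5 on all bone marrow arrays and entered the tests through fetal liver alone, so a call in this direction was largely fixed by the filter and their values are a description. Their differences are against levels near the bottom of the scale, for which no detection calls were used here, and each is also given with the bone marrow arrays set at 5. Mouse Serpina1b and Serpina1c belong to the cluster of alpha-1-antitrypsin genes, whose human counterpart inhibits neutrophil elastase. The promoter sequences of both are shown because they carry the same liver-type motif close to the start, together with that of Serpina7, the X-linked member of the clade. Each is the run of 250 bases before the transcription start in the RefSeq annotation of GRCm38.p6, 5′ to 3′ on the strand of the gene, with the capitals marking GTTAAT, the half-site that HNF1 factors of the liver can bind. Serpina1b lies at chr12:103738190-103738439 (minus strand), Serpina1c at chr12:103904951-103905200 (minus strand) and Serpina7 at chrX:139085237-139085486 (minus strand, the first of 2 starts listed).
Serpina1b: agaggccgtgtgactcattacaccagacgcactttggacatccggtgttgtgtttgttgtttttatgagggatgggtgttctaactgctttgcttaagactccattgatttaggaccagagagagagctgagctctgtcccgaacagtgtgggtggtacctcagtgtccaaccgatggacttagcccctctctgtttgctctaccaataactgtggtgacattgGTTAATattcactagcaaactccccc
Serpina1c: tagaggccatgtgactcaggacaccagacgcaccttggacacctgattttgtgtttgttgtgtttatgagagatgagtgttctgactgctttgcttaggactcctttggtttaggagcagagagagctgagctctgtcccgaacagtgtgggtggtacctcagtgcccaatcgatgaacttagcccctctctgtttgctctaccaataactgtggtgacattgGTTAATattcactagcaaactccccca
Serpina7: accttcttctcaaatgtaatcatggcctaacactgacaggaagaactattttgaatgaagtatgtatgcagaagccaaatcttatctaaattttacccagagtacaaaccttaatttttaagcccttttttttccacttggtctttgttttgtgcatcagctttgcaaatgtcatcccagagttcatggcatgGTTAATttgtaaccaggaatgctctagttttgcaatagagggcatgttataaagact

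The first base of GTTAAT was at -26 in Serpina1b, -27 in Serpina1c and -57 in Serpina7, counted from the start shown. Counted from the other listed start of Serpina7 it was at -74. Over the whole windows of 300 bases, which run 50 bases past the start, the Serpina1b and Serpina1c sequences were identical in 276 of 300 aligned columns, or 92%. A window was found for 33 of the 39 serpins, and Serpina6 and Serpina10 were among the 6 without one and were not searched. GTTAAT on either strand occurred in 5 of the 33 and in 8.24% of the windows of 27025 genes. The 5 were the 3 shown, and Serpinb8 and Serpini2, which were both under 5 on every array. Of the other letters searched on both strands, the C/EBP motif TTGCNNAA occurred in 7 serpin windows (12.2% of all genes), AGATAA of GATA factors in 9 (12.7%), TATAAA in 8 (15.7%), GAGGAAGT of PU.1 in 1 (3.69%) and CAAAGTCCA of HNF4 in none of 33 (0.555%). Such matches describe the letters of the window and are not measured binding.

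Serpina1b was at 13.51 and 13.54 in knockout fetal livers and at 13.31 and 13.48 in wild-type fetal livers, against 3.17 and 3.13 in knockout bone marrows and 3.25 and 3.02 in wild-type bone marrows. All 4 fetal liver arrays were far above all 4 bone marrow arrays. The difference between fetal liver and bone marrow was 10.37 ± 0.11 in knockout arrays (adjusted p = 2.12e-10) and 10.26 ± 0.11 in wild-type arrays (adjusted p = 2.33e-10). With bone marrow set at 5 the differences were 8.52 in knockout and 8.40 in wild-type arrays. Serpina1c was at 12.24 and 12.34 in knockout fetal livers and at 11.93 and 12.29 in wild-type fetal livers, against 3.13 and 3.33 in knockout bone marrows and 3.21 and 3.64 in wild-type bone marrows. The tissues again did not overlap, with a difference of 9.06 ± 0.17 in knockout arrays (adjusted p = 2.69e-09) and 8.68 ± 0.17 in wild-type arrays (adjusted p = 2.61e-09). With bone marrow set at 5 the differences were 7.29 in knockout and 7.11 in wild-type arrays. Because the Serpina1 copies are near-identical, probe sets of 1 copy may also bind transcripts of another, and the levels of single copies are uncertain.

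Other clade A members carry hormones in plasma and do not act as inhibitors. Serpina6, corticosteroid-binding globulin, was at 12.80 and 12.89 in knockout fetal livers and at 12.62 and 12.78 in wild-type fetal livers, against 3.56 and 3.17 in knockout bone marrows and 3.31 and 3.49 in wild-type bone marrows. The 4 fetal liver arrays stood apart from the 4 bone marrow arrays, by 9.48 ± 0.14 in knockout arrays (adjusted p = 1.27e-09) and by 9.30 ± 0.14 in wild-type arrays (adjusted p = 1.08e-09). With bone marrow set at 5 the differences were 7.85 in knockout and 7.70 in wild-type arrays. Serpina7, thyroxine-binding globulin, was at 5.31 and 6.44 in knockout fetal livers and at 6.63 and 6.52 in wild-type fetal livers, against 2.31 and 2.63 in knockout bone marrows and 1.96 and 2.29 in wild-type bone marrows. One knockout fetal liver array lay more than 1 log2 unit under the other 3 fetal liver arrays, and no bone marrow array reached any of them. The difference between the tissues was 3.40 ± 0.31 in knockout arrays (adjusted p = 1.63e-05) and 4.45 ± 0.31 in wild-type arrays (adjusted p = 2.88e-06). With bone marrow set at 5 the differences were 0.87 in knockout and 1.57 in wild-type arrays.

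Serpina10 encodes the inhibitor that blocks clotting factor Xa together with protein Z. It was at 10.57 and 10.77 in knockout fetal livers and at 10.74 and 10.96 in wild-type fetal livers, against 4.56 and 4.10 in knockout bone marrows and 4.50 and 4.01 in wild-type bone marrows. The tissues did not overlap, and the difference was 6.34 ± 0.20 in knockout arrays (adjusted p = 2.19e-08) and 6.60 ± 0.20 in wild-type arrays (adjusted p = 1.79e-08). With bone marrow set at 5 the differences were 5.67 in knockout and 5.85 in wild-type arrays. Serpina11 was at 6.87 and 7.36 in knockout fetal livers and at 6.93 and 7.35 in wild-type fetal livers, against 5.71 and 5.83 in knockout bone marrows and 5.74 and 5.85 in wild-type bone marrows. Its fetal liver arrays were all above its bone marrow arrays by a narrower margin, 1.34 ± 0.18 in knockout arrays (adjusted p = 0.000199) and 1.35 ± 0.18 in wild-type arrays (adjusted p = 0.000183). The other 8 clade A members did not reach the level needed for the tests and lay between 2.75 and 4.71 on all 8 arrays.

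**Figure D2:**
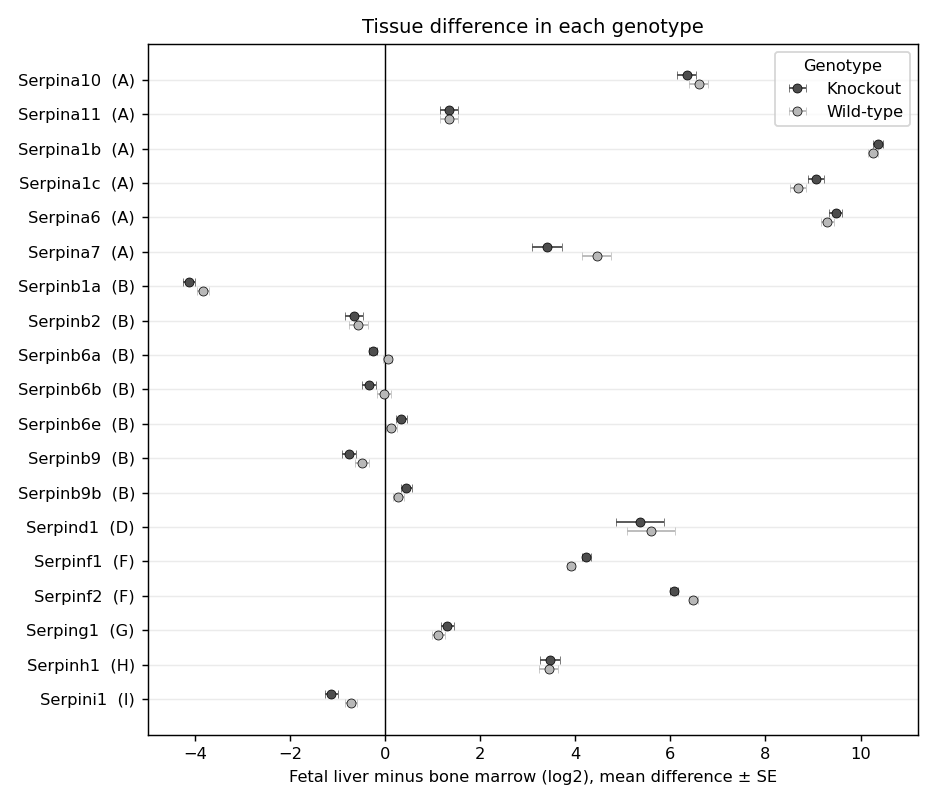
Difference between fetal liver and bone marrow (log2, fetal liver minus bone marrow) for each tested serpin, in knockout and in wild-type arrays, with bars of 1 standard error of the fit. Members of clades A, D, F, G and H lie to the positive side in both genotypes, from 1.12 for Serping1 in wild-type arrays to 10.37 for Serpina1b in knockout arrays, and Serpinb1a lies furthest to the negative side, at -4.13 in knockout and -3.83 in wild-type arrays.

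The tested members of clades D, F, G and H were also called higher in fetal liver in both genotypes, beside 36.6% of all genes in knockout and 39.2% in wild-type arrays. Serpind1, heparin cofactor II, inhibits thrombin in the presence of glycosaminoglycans. It was at 10.30 and 10.62 in knockout fetal livers and at 10.63 and 10.45 in wild-type fetal livers, against 4.82 and 5.37 in knockout bone marrows and 3.99 and 5.91 in wild-type bone marrows. The bone marrow arrays were spread widely around the level of 5 but none came near fetal liver, and the difference was 5.37 ± 0.50 in knockout arrays (adjusted p = 1.92e-05) and 5.59 ± 0.50 in wild-type arrays (adjusted p = 1.39e-05). Serpinf2, alpha-2-antiplasmin, is the main plasma inhibitor of plasmin. It was at 12.14 and 11.99 in knockout fetal livers and at 12.06 and 12.14 in wild-type fetal livers, against 5.98 and 5.999 in knockout bone marrows and 5.64 and 5.60 in wild-type bone marrows. Its fetal liver arrays stood 6.08 ± 0.09 above bone marrow in knockout arrays (adjusted p = 1.28e-09) and 6.48 ± 0.09 in wild-type arrays (adjusted p = 9.51e-10).

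Serpinf1, pigment epithelium-derived factor, is a secreted member without inhibitory activity that restrains angiogenesis. It was at 10.53 and 10.59 in knockout fetal livers and at 10.44 and 10.55 in wild-type fetal livers, against 6.37 and 6.29 in knockout bone marrows and 6.57 and 6.60 in wild-type bone marrows. The tissues were separate, with a difference of 4.23 ± 0.09 in knockout arrays (adjusted p = 3.33e-09) and 3.91 ± 0.09 in wild-type arrays (adjusted p = 4.96e-09), while a dimmer probe set of the gene gave 2.21 in knockout and 1.94 in wild-type arrays. Serping1, the C1 inhibitor of complement and the contact system, was at 8.62 and 8.75 in knockout fetal livers and at 8.56 and 8.75 in wild-type fetal livers, against 7.35 and 7.39 in knockout bone marrows and 7.75 and 7.32 in wild-type bone marrows. Bone marrow therefore held a Serping1 signal well above the level needed for the tests, under fetal liver by 1.31 ± 0.14 in knockout arrays (adjusted p = 5.49e-05) and 1.12 ± 0.14 in wild-type arrays (adjusted p = 0.000136).

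Serpinh1, also called HSP47, stays in the endoplasmic reticulum as a chaperone of procollagen and inhibits no protease. It was at 8.95 and 9.44 in knockout fetal livers and at 9.48 and 9.40 in wild-type fetal livers, against 5.63 and 5.84 in knockout bone marrows and 6.29 and 5.71 in wild-type bone marrows. All fetal liver arrays were above all bone marrow arrays, by 3.46 ± 0.21 in knockout arrays (adjusted p = 1.24e-06) and 3.44 ± 0.21 in wild-type arrays (adjusted p = 1.28e-06). A dimmer probe set of Serpinh1 gave 2.55 in knockout and 2.47 in wild-type arrays.

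Clade B did not follow the secreted members. Serpinb1a, the leukocyte elastase inhibitor that protects neutrophils from their granule proteases, was at 7.28 and 7.28 in knockout fetal livers and at 7.36 and 7.75 in wild-type fetal livers, against 11.46 and 11.36 in knockout bone marrows and 11.42 and 11.35 in wild-type bone marrows. Every bone marrow array was above every fetal liver array, and fetal liver differed by -4.13 ± 0.13 in knockout arrays (adjusted p = 2.19e-08) and by -3.83 ± 0.13 in wild-type arrays (adjusted p = 3.5e-08). The second probe set of Serpinb1a gave -2.91 in knockout and -2.72 in wild-type arrays. Serpinb9, an inhibitor of granzyme B, was at 6.56 and 6.62 in knockout fetal livers and at 7.10 and 6.78 in wild-type fetal livers, against 7.37 and 7.33 in knockout bone marrows and 7.62 and 7.23 in wild-type bone marrows. Serpinb9 was lower in fetal liver, with a difference of -0.76 ± 0.15 in knockout arrays (adjusted p = 0.00182) and of -0.49 ± 0.15 in wild-type arrays (adjusted p = 0.0175), and the wild-type call was lost without the first wild-type bone marrow array (-0.29, adjusted p = 0.141) or the second wild-type fetal liver array (-0.33, adjusted p = 0.119).

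The tissue differences of the remaining clade B members were small. Serpinb6a and Serpinb6b are mouse relatives of human SERPINB6, an intracellular inhibitor of cathepsin G. Serpinb6a was at 8.82 and 8.80 in knockout fetal livers and at 8.97 and 9.09 in wild-type fetal livers, against 9.14 and 8.99 in knockout bone marrows and 9.001 and 8.95 in wild-type bone marrows. Its difference was -0.25 ± 0.09 in knockout arrays (adjusted p = 0.0416), a call lost in 9 of 16 alternatives, and 0.05 ± 0.09 in wild-type arrays (adjusted p = 0.654), where the sign turned after median centring (-0.17). Serpinb6b was at 7.65 and 8.09 in knockout fetal livers and at 8.20 and 8.37 in wild-type fetal livers, against 8.26 and 8.16 in knockout bone marrows and 8.35 and 8.28 in wild-type bone marrows, and passed the test in neither genotype. Serpinb6e was at 6.60 and 6.55 in knockout fetal livers and at 6.31 and 6.63 in wild-type fetal livers, against 6.26 and 6.21 in knockout bone marrows and 6.35 and 6.32 in wild-type bone marrows. Its difference was 0.34 ± 0.11 in knockout arrays (adjusted p = 0.027), a call lost in 5 of 16 alternatives. One of these was median centring (0.16, adjusted p = 0.225), where its wild-type value of 0.13 ± 0.11 turned sign (-0.09). Serpinb9b was at 5.63 and 5.44 in knockout fetal livers and at 5.27 and 5.47 in wild-type fetal livers, against 4.99 and 5.18 in knockout bone marrows and 5.15 and 5.03 in wild-type bone marrows. The Serpinb9b difference was 0.45 ± 0.12 in knockout arrays (adjusted p = 0.00991) and 0.28 ± 0.12 in wild-type arrays (adjusted p = 0.0702). Its knockout call was lost in 3 of 15 alternatives, among them median centring (0.26, adjusted p = 0.0685). The other 11 clade B members lay between 2.24 and 4.64 on all arrays.

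Clade I holds neuroserpin, Serpini1, which inhibits tissue plasminogen activator and is best known from neurons. It was at 4.48 and 4.87 in knockout fetal livers and at 4.97 and 4.98 in wild-type fetal livers, against 5.88 and 5.74 in knockout bone marrows and 5.74 and 5.64 in wild-type bone marrows. Serpini1 was under 5 on every fetal liver array and entered the tests through bone marrow alone. A call in this direction was therefore largely fixed by the filter, and its values are a description. The bone marrow arrays were all higher, and fetal liver differed by -1.13 ± 0.13 in knockout arrays (adjusted p = 8.38e-05) and by -0.72 ± 0.13 in wild-type arrays (adjusted p = 0.00128). Of its 2 dimmer probe sets, 1 gave -0.91 in knockout and -0.74 in wild-type arrays and the other, near the bottom of the scale, gave 0.10 in knockout and 0.41 in wild-type arrays. Serpini2 lay between 3.19 and 3.52 on all arrays.

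Counted over the tested serpins, 13 were called higher and 5 lower in fetal liver in knockout arrays, beside 36.6% higher, 27.1% lower and 63.8% in all of the 13136 genes. In wild-type arrays 11 were called higher and 4 lower, beside 39.2% higher, 26.8% lower and 65.9% in all of the genes. The median difference of the 19 was 1.34 in knockout and 1.35 in wild-type arrays, against 0.11 and 0.14 over all genes tested in knockout and wild-type arrays. These counts describe the members that entered the tests and support nothing by themselves, since 6 of them entered through 1 tissue alone. With no filter on level, 18 of all 39 serpins were called in knockout arrays, beside 47.6% of 18194 genes, and 17 of 39 in wild-type arrays, beside 49.7%. Among the 20 dim members this added Serpina3n in knockout arrays and Serpinb8 and Serpinb9c in wild-type arrays, all under 5 on every array. Median centring of the arrays lowered every tissue difference by 0.19 in knockout and 0.22 in wild-type arrays, and with it 26.7% of all genes were called higher and 35.9% lower in fetal liver in knockout arrays, and 27.7% higher and 36% lower in wild-type arrays. The same 15 serpins that were called in wild-type arrays were also called in knockout arrays, and Serpinb6a, Serpinb6e and Serpinb9b were called in knockout arrays alone. The interaction of genotype and tissue was not called for any of the 19 (adjusted p from 0.231), with 4 of them under an unadjusted p of 0.05, beside 0.0914% of all genes called (0.0685% with a positive and 0.0228% with a negative interaction), so no tissue difference was shown to depend on the genotype.

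Levels of marker genes also differed between the tissues. The summed intensity of 9 hepatoblast markers was 84195 to 86029 in knockout fetal livers and 80404 to 83011 in wild-type fetal livers, against 268 to 314 in knockout bone marrows and 270 to 315 in wild-type bone marrows. All 9 were called higher in fetal liver in both genotypes, beside 36.6% of all genes in knockout and 39.2% in wild-type arrays. Several of the 9, Afp and Fgb among them, were under 5 on every bone marrow array and entered the tests through fetal liver alone. Their calls were largely fixed by the filter, so this count is a description. The summed intensity of 9 neutrophil markers was 11445 to 15663 in knockout fetal livers and 11783 to 13972 in wild-type fetal livers, against 132708 to 134828 in knockout bone marrows and 130714 to 131645 in wild-type bone marrows. All 9 were called lower in fetal liver, beside 27.1% of all genes in knockout and 26.8% in wild-type arrays. In both genotypes 4 of 4 B lineage, 3 of 4 T and NK, and 3 of 3 mast cell and basophil markers were also called lower, and 0 higher. Of 6 macrophage markers 1 was called higher and 3 lower in each genotype, and of 5 erythroid markers 1 higher and 1 lower. Of 4 endothelial markers 3 were called higher, with 1 lower in wild-type arrays. Stroma and bone markers went both ways. Of 8 megakaryocyte markers 3 were higher and 1 lower in knockout arrays, against 0 and 5 in wild-type arrays. No marker is at 0 in these files, whose lowest values are positive. In such mixed samples fewer cells of a type and less RNA per cell cannot be told apart, and the part of these cells in the serpin differences was not tested.

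Most serpins lay in clusters on chromosomes 12, 13 and 1. On chromosome 12, which held 13 members, the 5 tested ones, Serpina10, Serpina6, Serpina1b, Serpina1c and Serpina11, followed each other in this order with only the dim Serpina1f of the members between them, and all 5 were called higher in fetal liver (36.6% of all genes in knockout and 39.2% in wild-type arrays). Of these 5, all but Serpina11 had entered the tests through fetal liver alone. Next to them came Serpina9, Serpina12, Serpina5, Serpina3a, Serpina3i and Serpina3n, none of which reached a level of 5. The boundary between the groups fell between Serpina11 and Serpina9, which are neighbouring protein-coding genes in the RefSeq table. Chromosome 13 held 11 clade B members, of which 6 were tested, and there Serpinb1a, the one highest in bone marrow relative to fetal liver, was followed by Serpinb6b, Serpinb9 and Serpinb9b with smaller differences. Of 7 clade B members on chromosome 1 only Serpinb2 entered the tests. Serpinf1 and Serpinf2 are neighbours on chromosome 11 and were both higher in fetal liver.

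No serpin was called between knockout and wild-type arrays in either tissue. In fetal liver the count was 0 of 19 by limma, with 4 under an unadjusted p of 0.05, where 0.320% of all genes were called (0.122% higher and 0.198% lower) and 2890 of 13136 had an unadjusted p under 0.05. In bone marrow it was 0 of 19, with 3 under an unadjusted p of 0.05, where 0.411% of all genes were called (0.0457% higher and 0.365% lower) and 886 had an unadjusted p under 0.05. With no filter on level it was 0 of 39 in both tissues, beside 0.0769% of 18194 genes in fetal liver and 0.253% in bone marrow. The differences of the 19 ran from -0.87 to 0.18 in fetal liver, with a median of -0.08 (-0.03 over all genes), and from -0.78 to 0.37 in bone marrow, with a median of -0.02 (0.01 over all genes).

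**Figure D3:**
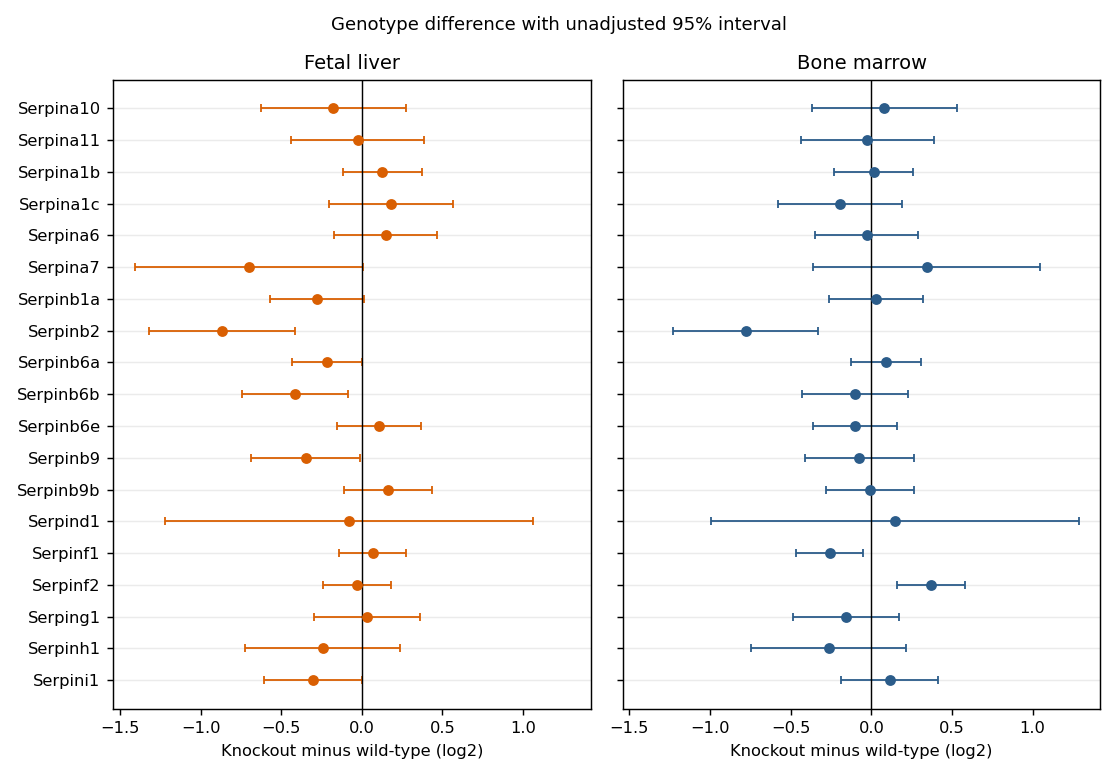
Difference between knockout and wild-type (log2, knockout minus wild-type) for each tested serpin in fetal liver and bone marrow, with 95% confidence intervals of the fit. Serpinb2 lies at -0.87 in fetal liver and -0.78 in bone marrow with intervals below 0, and no member passed the adjusted threshold.

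Serpinb2, plasminogen activator inhibitor type 2, inhibits urokinase and tissue plasminogen activator and is made by macrophages. It was the member with the widest genotype difference in both tissues, so the 250 bases before 1 of its 2 RefSeq starts are shown. This start was taken because the TATA box letters TATAAA, in capitals, begin at -29 from it. From the other start the same letters begin at -116. The bases shown lie at chr1:107511173-107511422 on the plus strand of GRCm38.p6.
Serpinb2: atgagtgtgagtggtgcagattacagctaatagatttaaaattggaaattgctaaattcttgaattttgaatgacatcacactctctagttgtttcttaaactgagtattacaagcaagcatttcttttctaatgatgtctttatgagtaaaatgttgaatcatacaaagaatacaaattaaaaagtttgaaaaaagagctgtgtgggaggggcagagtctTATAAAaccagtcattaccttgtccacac

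Serpinb2 was at 6.66 and 7.15 in knockout fetal livers, against 7.77 and 7.77 in wild-type fetal livers. In bone marrow it was at 7.61 and 7.51 in knockout arrays, against 8.61 and 8.07 in wild-type arrays. Both knockout arrays were below both wild-type arrays in each tissue, which was also so for 30.2% of all genes tested in fetal liver and 19.3% in bone marrow. The difference was -0.87 ± 0.20 in fetal liver (95% interval -1.32 to -0.42, adjusted p = 0.0979) and -0.78 ± 0.20 in bone marrow (-1.23 to -0.33, adjusted p = 0.297), and the interaction was -0.09 ± 0.28 (adjusted p = 0.914). The average of both genotype differences, a contrast added after the data were seen, was -0.82 ± 0.14 with an adjusted p of 0.0691, beside 0.198% of all genes called (0.0457% higher and 0.152% lower). The fetal liver value passed the threshold with a mean-variance trend and robust variances (-0.87, adjusted p = 0.0359, where 3.11% of all genes were called) and without the second knockout fetal liver array (-1.12, adjusted p = 0.0284). The bone marrow value passed it under none of 16 alternatives (-1.05 to -0.51, adjusted p from 0.0958 to 1). Between tissues Serpinb2 was lower in fetal liver, with a difference of -0.66 ± 0.20 in knockout arrays (adjusted p = 0.0176) and of -0.57 ± 0.20 in wild-type arrays (adjusted p = 0.0315). The knockout call was lost without the first or second knockout bone marrow array (adjusted p = 0.0857 and 0.0535) or the first knockout fetal liver array (-0.41, adjusted p = 0.122). The wild-type call was lost without the first wild-type bone marrow array (-0.30, adjusted p = 0.23) or either wild-type fetal liver array (adjusted p = 0.0928 for each).

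Some marker lists differed between the genotypes in bone marrow beside Serpinb2. No hepatoblast, neutrophil, B lineage, T and NK, mast cell and basophil or endothelial marker was called there. Of 5 erythroid markers 1 was called lower, beside 0.365% of all genes. The summed intensity of 8 megakaryocyte markers was 7024 to 7406 in knockout bone marrows, against 14134 to 16899 in wild-type bone marrows. Of the 8, 7 were called lower, where 0.365% of all genes were called lower in knockout bone marrow. In fetal liver the same sum was 7267 to 7283 in knockout arrays, against 7206 to 7368 in wild-type arrays, with 0 of 8 called. The sum of 6 macrophage markers was 6478 to 6680 in knockout bone marrows, against 5686 to 6082 in wild-type bone marrows, and 5306 to 5405 in knockout fetal livers, against 4990 to 5411 in wild-type fetal livers, with 0 of 6 called in either tissue. The sum of 6 stroma and bone markers was 3195 to 3257 in knockout bone marrows, against 4535 to 5672 in wild-type bone marrows, with 2 of 6 called lower, and 7955 to 10218 in knockout fetal livers, against 10244 to 10719 in wild-type fetal livers, with 0 of 6 called. The part of these cells in the Serpinb2 values was not tested.

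**Figure D4:**
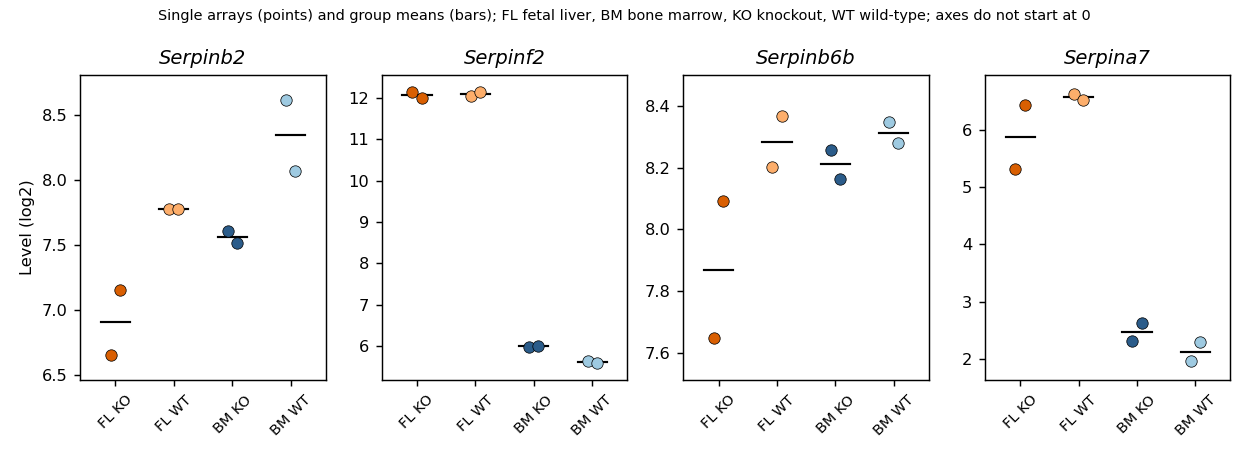
Log2 intensity of Serpinb2, Serpinf2, Serpinb6b and Serpina7 on each of the 8 arrays, with the groups in the order knockout fetal liver, wild-type fetal liver, knockout bone marrow, wild-type bone marrow and a bar at each group mean. Serpinb2 sits lower on both knockout arrays than on both wild-type arrays in each tissue, and 1 knockout fetal liver array of Serpina7 sits apart at 5.31.

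Arrays of the genotypes that do not overlap were common at 2 against 2. In fetal liver they were found for 9 of 19 serpins, beside 50.1% of all genes tested. Of these 9, Serpina1b and Serpina6 were higher in knockout arrays (19.9% of all genes) and Serpina7, Serpinb1a, Serpinb2, Serpinb6a, Serpinb6b, Serpinb9 and Serpini1 were lower (30.2%). In bone marrow they were found for 6 of 19, beside 43.1% of all genes, with Serpina7 and Serpinf2 higher (23.8%) and Serpinb2, Serpinb6b, Serpinb6e and Serpinf1 lower (19.3%). Serpina7 thus had opposite signs in the tissues, but its bone marrow arrays, at 1.96 to 2.63, were far under 5. Its bone marrow difference was 0.34 ± 0.31 (adjusted p = 0.946), and none of these members was called. In bone marrow Serpinf2 was 0.37 ± 0.09 higher in knockout arrays (95% interval 0.16 to 0.58, adjusted p = 0.278) and its neighbour Serpinf1 had a difference of -0.26 ± 0.09 (-0.46 to -0.05, adjusted p = 0.612), so the neighbours had opposite signs. In fetal liver the differences were -0.03 ± 0.09 for Serpinf2 (-0.24 to 0.18, adjusted p = 0.867) and 0.07 ± 0.09 for Serpinf1 (-0.14 to 0.27, adjusted p = 0.703). In fetal liver Serpinb1a differed by -0.28 ± 0.13 (-0.57 to 0.01, adjusted p = 0.245), Serpinb6b by -0.41 ± 0.14 (-0.74 to -0.09, adjusted p = 0.158), Serpinb9 by -0.35 ± 0.15 (-0.69 to -0.01, adjusted p = 0.216) and Serpinb6a by -0.22 ± 0.09 (adjusted p = 0.226). X-linked Serpina7 differed by -0.70 ± 0.31 in fetal liver (-1.41 to 0.00, adjusted p = 0.229) and Serpini1 by -0.30 ± 0.13 (adjusted p = 0.229). Without the second knockout fetal liver array Serpina7 (-1.27, adjusted p = 0.0215), Serpinb2, Serpinb6b (-0.64, adjusted p = 0.0276) and Serpini1 (-0.50, adjusted p = 0.0409) were called lower in knockout arrays, where 7.69% of all genes were called, against 0.320% with all arrays. Leaving out any other array gave 0 calls among the serpins there.

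Intervals of single members, not adjusted for the number of tests, bound the difference between knockout and wild-type arrays. In fetal liver this difference cannot be told apart from the sex-linked one. Serpina1b differed by 0.13 ± 0.11 in fetal liver (95% interval -0.12 to 0.37, adjusted p = 0.518) and Serpina6 by 0.15 ± 0.14 (-0.17 to 0.47, adjusted p = 0.574). Serpina10 differed by -0.18 ± 0.20 (-0.63 to 0.27, adjusted p = 0.633) and Serping1 by 0.03 ± 0.14 (-0.30 to 0.36, adjusted p = 0.927). Serpinb1a in bone marrow differed by 0.03 ± 0.13 (-0.26 to 0.32, adjusted p = 0.99). Serpind1 had the widest interval, -1.22 to 1.06 in fetal liver, and 2 arrays per group cannot narrow it. The collagen chaperone Serpinh1 differed by -0.24 ± 0.21 in fetal liver (-0.72 to 0.24, adjusted p = 0.53) and by -0.26 ± 0.21 in bone marrow (-0.74 to 0.21, adjusted p = 0.935).

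Partners of the serpins were read from lists of genes. Several target proteases, Plg among them, were under 5 on every bone marrow array and entered the tests through fetal liver alone. For these a higher call in fetal liver was largely fixed by the filter, so the tissue counts of this list are a description. Of 31 tested target proteases, 19 were called higher and 9 lower in fetal liver in knockout arrays, beside 36.6% and 27.1% of all genes, and 19 higher and 8 lower in wild-type arrays, beside 39.2% and 26.8%. Plg, the precursor of the plasmin that Serpinf2 inhibits, differed by 7.99 ± 0.11 in knockout arrays (adjusted p = 5.92e-10) and by 8.03 ± 0.11 in wild-type arrays (adjusted p = 6.12e-10). F2, the precursor of the thrombin that Serpind1 inhibits, differed by 7.27 ± 0.12 in knockout arrays (adjusted p = 1.89e-09) and by 6.75 ± 0.12 in wild-type arrays (adjusted p = 2.4e-09). Proc, the precursor of activated protein C, differed by 4.34 ± 0.13 in knockout arrays (adjusted p = 1.73e-08) and by 4.62 ± 0.13 in wild-type arrays (adjusted p = 1.3e-08). These 3 averaged under 5 in bone marrow in both genotypes, and with bone marrow set at 5 the differences in knockout and wild-type arrays were 7.62 and 7.54 for Plg, 6.88 and 6.64 for F2, and 4.24 and 4.40 for Proc. The basophil granule protease Mcpt8 was lower in fetal liver, with a difference of -4.88 ± 0.13 in knockout arrays (adjusted p = 1.07e-08) and of -4.61 ± 0.13 in wild-type arrays (adjusted p = 1.43e-08). Between genotypes 0 of 31 proteases were called in either tissue, including F2 (-0.34 ± 0.12, adjusted p = 0.648) and F10 (-0.37 ± 0.14, adjusted p = 0.656) in bone marrow.

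Of 19 tested cofactors and receptors of serpins, 13 were called higher and 4 lower in fetal liver in knockout arrays (36.6% and 27.1% of all genes), and 12 higher and 4 lower in wild-type arrays (39.2% and 26.8%). Proz, the protein Z with which Serpina10 acts, averaged 8.79 in knockout fetal livers and 8.95 in wild-type fetal livers, against 3.93 in knockout bone marrows and 3.64 in wild-type bone marrows. Vtn, the serpin-binding plasma protein vitronectin, differed by 7.47 ± 0.15 in knockout arrays (adjusted p = 2.86e-09) and by 7.80 ± 0.15 in wild-type arrays (adjusted p = 2.61e-09), or by 6.65 in both with bone marrow set at 5. Some of the 19, Proz and Vtn among them, were under 5 on every bone marrow array and entered the tests through fetal liver alone. Their tissue calls were largely fixed by the filter, so the tissue counts are a description. Between genotypes 0 of 19 were called in either tissue.

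Of 30 tested inhibitors outside the family, 18 were called higher and 6 lower in fetal liver in knockout arrays (36.6% and 27.1% of all genes), and 19 higher and 7 lower in wild-type arrays (39.2% and 26.8%). Itih2, a heavy chain of the inter-alpha-trypsin inhibitor, differed by 8.34 ± 0.17 in knockout arrays (adjusted p = 2.86e-09) and by 7.91 ± 0.17 in wild-type arrays (adjusted p = 3.77e-09), or by 7.58 in knockout and 7.26 in wild-type arrays with bone marrow set at 5. Of the 30, 2 were called between genotypes in bone marrow, beside 0.411% of all genes. Timp3, an inhibitor of matrix metalloproteases, was lower in knockout bone marrow (-0.90 ± 0.11, adjusted p = 0.0135), and so was Ctla2b, which is related to the propeptide of cathepsin L (-1.13 ± 0.18, adjusted p = 0.0479). In fetal liver 0 of 30 were called. Several of the 30, Itih2 among them, were under 5 on every bone marrow array and entered the tests through fetal liver alone. Their tissue calls were largely fixed by the filter, so the tissue counts are a description.

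Of 22 tested collagens, collagen chaperones and crosslinking enzymes, the setting in which Serpinh1 works, 18 were called higher and 0 lower in fetal liver in knockout arrays (36.6% and 27.1% of all genes, or 26.7% and 35.9% after median centring), and 17 higher and 0 lower in wild-type arrays (39.2% and 26.8%, or 27.7% and 36% after median centring). In knockout bone marrow 3 of the 22 were called lower, beside 0.365% of all genes. They were Col1a1 (-1.22 ± 0.17, adjusted p = 0.0303), Col4a2 (-0.74 ± 0.12, adjusted p = 0.0449) and Col1a2 (-0.76 ± 0.12, adjusted p = 0.0491), and Serpinh1 was not called there. In fetal liver 0 of 22 were called between the genotypes. Some of the 22 were under 5 on every bone marrow array and entered the tests through fetal liver alone, so their tissue calls were largely fixed by the filter.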

How the data were processed

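RNA was measured on Affymetrix arrays in 4 groups of 2, taken from the sample titles, each array a pool of 2 littermates per the labels. The authors deposited 1 intensity per probe set on a linear scale, made with RMA per the submitters' processing notes, for 45101 probe sets, of a version not given in the sources used here. RMA equalizes the arrays and compresses differences of dim probe sets. The log2 was taken here.

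Of the probe sets, 34958 name 1 gene, 932 several and 9211 are unnamed here. Of the first, 34754 had an Entrez identifier in the RefSeq table (GRCm38.p6), and 0 symbols changed. The brightest probe set of each of 18194 genes was kept, and 13136 genes at 5 or more on at least 2 arrays were tested with limma 3.58.1 in R 4.3.3: 1 mean per group over all 8 arrays, default eBayes (residual degrees of freedom 4, prior 4.48), two-sided, Benjamini-Hochberg adjustment over all genes, threshold 0.05. Array number limits the precision. The fit was tested on simulated data. Members, lists and alternatives were chosen with earlier results of these data known. Named were every tested member, some dim members, Col18a1, the sex-linked genes, and from each list genes among the 4 with the largest moderated t. The other dim members are given by count and range. Same-numbered arrays deviated together at correlations of -0.06 in fetal liver and 0.00 in bone marrow, and the numbers were not taken as pairs. Promoters are RefSeq windows from 250 bases before to 50 after the start. Tried as alternatives were another or no filter, the mean of a gene's probe sets, median centring, trend with robust variances, array weights, a replicate block, a fit on the compared arrays alone, and leaving out single arrays.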

Additional observations from a re-analysis of the deposited data

How the results depend on the processing

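Tissue calls among serpins numbered 14 to 19 in knockout and 13 to 17 in wild-type arrays over 16 alternatives each. Between genotypes in bone marrow 0 were called throughout. In fetal liver 1 was called with trend and robust variances, beside 3.11% of all genes, and 0 to 4 with 1 array left out (4, beside 7.69%, without the second knockout array). The interaction had 0 to 1 called with 1 array left out. The average over tissues, added after the data were seen, had 1 with trend and robust variances and 0 to 1 with 1 array left out. Col18a1 in fetal liver missed the threshold in 8 of 16 alternatives. Among these 8 were array weights (-1.003, adjusted p = 0.106), the replicate number as a block (-1.003, adjusted p = 0.0941) and only the arrays compared (-1.003, adjusted p = 0.157). With 1 array left out the Col18a1 difference ran from -1.06 to -0.95. The block left each serpin count as it was, since in the knockout tissue comparison it ended the Serpinb6a call (-0.25, adjusted p = 0.0688) and added Serpinb6b (-0.34, adjusted p = 0.0343). No result changed sign while called. Called genes in fetal liver between genotypes were 38.1% higher, and 60% after median centring. No cause was tested.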

Other observations

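Probe sets that name several serpins belong to no member and were tested nowhere. The one naming Serpina1d and Serpina1a was at 11.19 and 11.74 in knockout fetal livers and at 11.13 and 11.67 in wild-type fetal livers, against 2.72 and 2.54 in knockout bone marrows and 2.32 and 2.37 in wild-type bone marrows. The one naming Serpina1e, Serpina1c and Serpina1b was at 7.15 and 7.89 in knockout fetal livers and at 7.77 and 7.96 in wild-type fetal livers, against 3.28 and 3.06 in knockout bone marrows and 2.61 and 3.30 in wild-type bone marrows. All fetal liver arrays were above all bone marrow arrays on both. The one naming Serpinb9h, Serpinb9g, Serpinb9e and Serpinb9f averaged 3.47 in knockout fetal livers and 3.61 in wild-type fetal livers, against 3.15 in knockout bone marrows and 3.48 in wild-type bone marrows.

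The second probe set of Serpina1b averaged 13.02 in knockout fetal livers and 12.98 in wild-type fetal livers, against 3.21 in knockout bone marrows and 3.34 in wild-type bone marrows. Aligned promoter windows of the Serpina1 copies were 91.4% (Serpina1c and Serpina1d) to 97.6% (Serpina1b and Serpina1e) identical, over aligned lengths of 290 and 250 columns. Serpina3n, under the level needed for the tests, was at 4.71 and 4.59 in knockout fetal livers and at 4.00 and 4.45 in wild-type fetal livers, against 3.97 and 4.00 in knockout bone marrows and 3.89 and 4.06 in wild-type bone marrows.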
